A study of Mus musculus with 4 samples.

Results

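Cytosolic ribosomal proteins were represented by 154 spots of the 9600 on a nylon membrane array, and these spots named 63 genes. They were all spots whose single gene symbol in the platform annotation was that of a protein of the large subunit (RPL, 99 spots of 41 genes) or of the small subunit (RPS, 55 spots of 22 genes). The S6 kinases, RPS19BP1 and 3 spots of pseudogenes were left out. RPLP0 and RPSA were named by no spot used here. Of all spots, 8496 named a single gene and together covered 6284 genes.

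The arrays were hybridized with RNA of dorsal root ganglion (DRG) neurons from NIH Swiss mouse embryos at embryonic day 13.5, kept for 3 weeks in Campenot chambers, whose divider lets only axons pass and so keeps them apart from the cell bodies. The 4 conditions were axons stimulated electrically for 2 h, axons left unstimulated, cell bodies stimulated for 2 h and cell bodies left unstimulated. No genetic change or drug treatment set the conditions apart, and the methods describe a mitotic inhibitor against dividing non-neuronal cells and an overnight period without serum and nerve growth factor before stimulation for the cultures. Each condition was 1 pooled sample on 1 array, the records giving 3 pooled coverslips, so there were no replicates, no p-value was computed, and the 4 arrays limit the precision of every value. The spotted DNA came from human cDNA clones while the RNA was from mouse, so close paralogs may not be told apart on these membranes. In pooled cultures less RNA per cell and fewer cells or axons cannot be told apart.

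Every ribosome is built from rRNA and about the same set of proteins, the large subunit forming peptide bonds and the small subunit reading the mRNA. Transcripts of these proteins are among the most abundant of a growing cell, and in vertebrates most begin with a cytosine followed by a run of pyrimidines, the terminal oligopyrimidine or TOP motif, through which mTOR signalling sets their translation. Ribosomes and mRNAs of ribosomal proteins are known from axons of sensory neurons, where some proteins are made locally. The comparisons below asked how these transcripts differed between stimulated and unstimulated axons, and between axons and cell bodies.

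Because the TOP motif lies at the start of the transcript, mouse start regions are shown for genes whose clones carry the results below, taken from RefSeq (build GRCm38.p6). Each stretch runs from 40 bases before the annotated start to 20 bases after it, on the transcribed strand, and capitals mark the longest run of C and T within the stretch from 10 bases before to 20 bases after the start, where it has 8 or more bases there. The first 6 genes had a clone past the threshold given below that was lower in axons, and the other 4 had clones that were bright on all arrays. These sets are not exclusive, since RPS10 also had a clone at 6569 to 8167 on the arrays and the other 4 also had dim clones. Further genes with a clone lower in axons, among them RPL34 and RPS12, are not shown.
Rpl18, chr7:45718031-45718090, plus strand: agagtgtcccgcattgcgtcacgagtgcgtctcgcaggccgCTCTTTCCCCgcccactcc
Rpl19, chr11:98026670-98026729, plus strand: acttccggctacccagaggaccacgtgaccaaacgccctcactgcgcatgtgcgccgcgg
Rpl35, chr2:39005112-39005171, minus strand: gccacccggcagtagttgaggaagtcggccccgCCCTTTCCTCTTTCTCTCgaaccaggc
Rpl7a, chr2:26910767-26910826, plus strand: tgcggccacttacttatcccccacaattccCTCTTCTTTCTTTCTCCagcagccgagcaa
Rps10, chr17:27635225-27635284, minus strand: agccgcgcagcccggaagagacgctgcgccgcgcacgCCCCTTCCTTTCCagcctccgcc
Rps24, chr14:24490638-24490697, plus strand: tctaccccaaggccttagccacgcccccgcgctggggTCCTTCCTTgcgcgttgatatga
Rpl13a, chr7:45128726-45128785, minus strand: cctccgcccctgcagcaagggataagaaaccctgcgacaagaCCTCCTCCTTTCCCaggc
Rpl14, chr9:120571477-120571536, plus strand: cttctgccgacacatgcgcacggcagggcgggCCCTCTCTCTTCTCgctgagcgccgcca
Rps9, chr7:3704001-3704060, plus strand: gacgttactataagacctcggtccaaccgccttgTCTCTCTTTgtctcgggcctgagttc
Rps16, chr7:28350649-28350708, plus strand: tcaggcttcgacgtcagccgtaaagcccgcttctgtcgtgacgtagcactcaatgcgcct

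Pyrimidine runs stood at starts of genes in both sets. They were found in 5 of the 6 genes of the first set (10 to 18 bases in Rpl18, Rpl35, Rpl7a and Rps10, and 9 in Rps24). In the other set they were found in 3 of the 4 genes (14 bases in Rpl13a and Rpl14 and 9 in Rps9). Since the sets were picked and overlap, these counts do not compare them. Run lengths are those within that stretch, and the run of Rpl7a went on upstream of it. The annotated starts of Rpl19 and Rps16 shown here had no run of 8, and where the table listed more than 1 start the first is shown. Of the 63 genes, 50 matched the RefSeq table by symbol, with 60 starts, and a run of 8 or more pyrimidines was found at 21 of them (35.0%), against 11.2% of all 32851 starts. The letters CCGGAAG, a core that ETS factors such as GABPA bind, were searched on both strands of the window of 300 bases (250 before and 50 after the start) (the reverse complement, CTTCCGG, can overlap a pyrimidine run). They were found at 21 of the 60 member starts (35.0%) and at 8.86% of all starts. Large and small subunit starts held a run in 36.1% and 33.3%. A match is a description of the sequence only.

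Nearly all member spots were above background on each array, taken as the 95th percentile of 384 spots without a gene name that stand at the end of each row of 25 and, as a minimum, the value of 10 at which many dim spots stand. This background was 42.5 in stimulated axons, 21.9 in unstimulated axons and 10 on both cell body arrays. Numbers above it therefore rest on unlike limits and are not comparable between axons and cell bodies. The numbers were 143 and 150 of 154 in stimulated and unstimulated axons and 153 and 154 in stimulated and unstimulated cell bodies. On every array, 143 clones were above background. Most named spots of any gene were above it as well, 88.4% and 94.6% in stimulated and unstimulated axons and 96.1% and 97.6% in stimulated and unstimulated cell bodies. The median member intensity was 106 in stimulated axons, 99.8 in unstimulated axons, 142 in stimulated cell bodies and 181 in unstimulated cell bodies. The corresponding medians of all named spots were 108, 94.3, 127 and 169. The typical member spot was therefore of middling brightness, at a median percentile of 51.1 to 54.5 of the 9600 spots. A bright tail was larger among members, with 11.7% above 5000 in stimulated axons, 10.4% in unstimulated axons and 13.6% on both cell body arrays, against 5.21%, 4.40%, 6.52% and 6.23% of all named spots.

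The brightness of a spot also depends on the DNA that was spotted, so differences between spots are not differences in transcript amount. With that limit, large subunit spots had higher medians than small subunit spots on each array. The medians were 123 against 84.0 in stimulated axons, 115 against 74.7 in unstimulated axons, 157 against 97.8 in stimulated cell bodies and 199 against 147 in unstimulated cell bodies. Of the spots above 5000 in their geometric mean over the arrays, 13 were of the large and 5 of the small subunit, which is 13.1% and 9.09% of their spots.

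**Figure D1:**
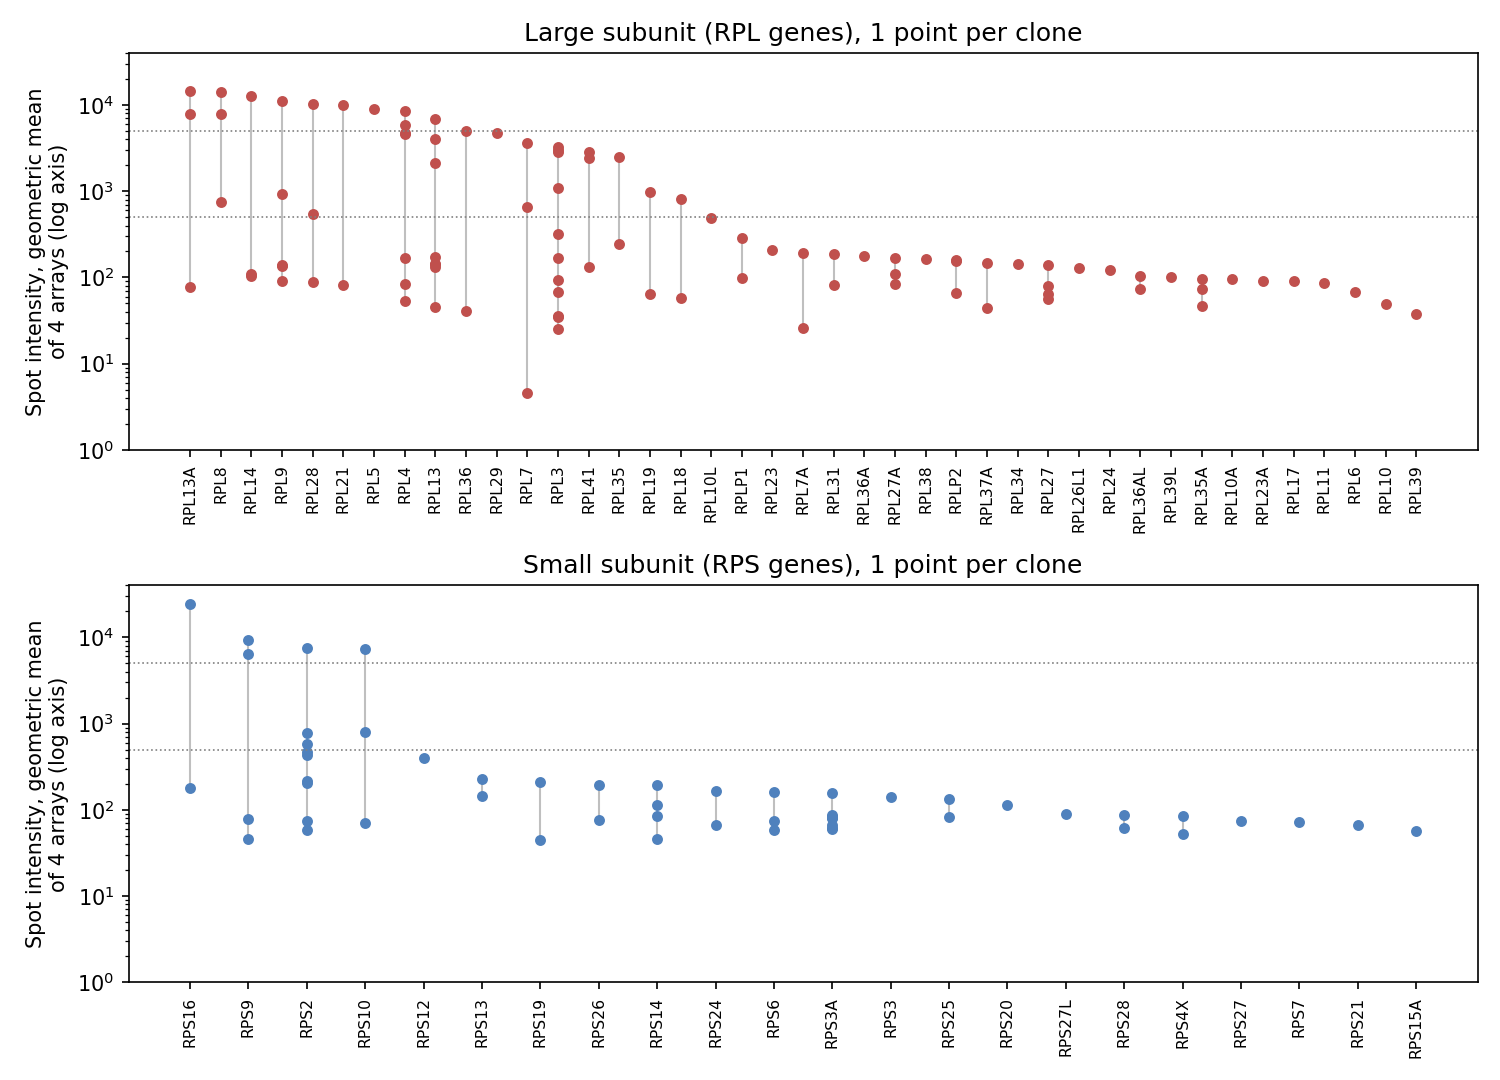
Geometric mean of the spot intensity over 4 arrays (log axis) for each clone of a ribosomal protein gene, with large subunit genes above and small subunit genes below, and with the clones of a gene joined by a grey line. Dotted lines stand at 500 and 5000, and 12 of the 14 genes that have a clone above 5000 also have one below 500.

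The brightest gene by its mean over clones was RPL5, which binds 5S rRNA and MDM2, with 1 clone at 7346 in stimulated axons, 8472 in unstimulated axons, 10222 in stimulated cell bodies and 9886 in unstimulated cell bodies. The other 4 of the 5 brightest genes were RPL29 (1 clone, 3498, 4080, 5700 and 6264 on the same arrays), RPL8, a protein near the peptidyl transferase centre, RPL13A, which in human monocytes also leaves the ribosome to silence inflammatory mRNAs, and RPS16. The brightest single clone was 1 of RPS16, at 23463 in stimulated axons, 23699 in unstimulated axons, 26668 in stimulated cell bodies and 24394 in unstimulated cell bodies. These 5 genes led on all 4 arrays. At the other end RPL39, a small protein of the exit tunnel, lay at 36.8, 40.6, 27.5 and 51.5, and RPL10, which joins the large subunit late in its assembly, at 38.6, 48.6, 34.2 and 94.3. RPS15A, RPL6, RPS27, RPL7A, RPS21, RPS4X, RPL35A and RPS28 were among the 5 dimmest on at least 1 array.

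Clones of the same gene did not share a level. Of the 63 genes, 38 had 2 or more clones (129 clones), and the brightest clone was a median of 8.79 times as bright as the dimmest, with a ratio above 10 in 19 genes. Over the 247 pairs of clones of one gene, the correlation of the z-score (the log10 intensity in SDs from the mean of its array) lay between 0.04 and 0.06 on the 4 arrays, a description only since the clones share an array, and between 0.09 and 0.12 over the 3393 such pairs of other genes. The SD within genes was 0.95 to 1.105 z-score units, where all spots of an array have an SD of 1. Spots of any gene that carry the same clone accession gave a correlation of 0.27 to 0.28 over 141 pairs. For the z ratios introduced below, the correlation over those 141 pairs was 0.01 in stimulated against unstimulated axons and 0.05 to 0.17 in the other comparisons, and over the 247 pairs of member clones it lay between −0.01 and 0.06. The gene of a spot is the one the platform annotation names, which was not checked here against the spotted DNA, so each gene value is that of the spots with its name.

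The disagreement is plain in single genes. RPL3, whose loop reaches the peptidyl transferase centre, had 11 clones that ran from 33.1 to 2937 in stimulated axons, with a median of 182. RPS2, at the mRNA entry of the small subunit, had 9 clones from 65.8 to 7628, and RPL13 had 8 clones from 54.7 to 7026. In contrast, all 8 clones of RPS3A, a small subunit protein that contacts initiation factor eIF3, were dim, between 53.4 and 164 in stimulated axons and between 83.6 and 182 in unstimulated cell bodies. RPL4, which lines the exit tunnel, had 7 clones from 48.3 to 8997 in stimulated axons, RPL9 had 5 from 57.3 to 9801, RPS9 had 4 from 37.2 to 9062, RPS14 had 4 from 35.8 to 102, and RPL27 had 4 from 46.9 to 95.6.

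The SD of log10 intensity over clones was largest in RPS16 (1.51), RPL7 (1.503), RPL36 (1.47), RPL21 (1.47) and RPL13A (1.24). It was smallest in RPS28 (0.11), RPL36AL (0.11), RPS3A (0.13), RPS13 (0.14) and RPS4X (0.15), whose clones were all dim. Pairs of spots with the same clone accession were closer in RPS9 (9062 and 6240 in stimulated axons) and RPL13A (13896 and 6560) than in RPL9 (9801 and 906). A gene value below is a mean over such clones, so the values of clones are given beside it.

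For the comparisons, a z ratio was formed by subtracting the z-score of a spot on 1 array from that on another and dividing by the SD which such differences had among the 9600 spots. A spot or gene is counted as lower or higher at 1.4 or more in size, the threshold of the methods, and clones were averaged to give the value of a gene. Such counts describe these arrays and carry no error rate. Shares of all spots are over the 9600, which include spots that name no single gene. Of the 8496 named spots, 476 were lower and 284 higher in stimulated against unstimulated axons, and 288 and 127 in cell bodies. In axons against cell bodies 290 were lower and 306 higher without stimulation, and 488 and 248 with it.

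In stimulated against unstimulated axons the ribosomal protein genes lay below the other genes as a group, with few genes past the threshold. Their median z ratio was −0.33, beside 0.02 for all 6284 genes, and 41 of 63 genes (65.1%) lay below 0, beside 48.4% of all genes. In all, 3 genes were counted as lower (4.76% of the 63), where 4.96% of all genes were, and none as higher, where 2.86% of all genes were. By spots, 8 of 154 were lower (5.19%, beside 5.69% of all spots) and 3 were higher (1.95%, beside 4.47%), so the counts past the threshold were at or below the background. The lower median was most marked in the 25 genes with 1 clone (−0.66, 20 below 0) and smaller in the 38 genes with more clones (−0.17, 21 below 0). The median over the 154 spots was −0.15.

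The 3 lower genes were all of the large subunit. RPL10A, a protein of the stalk past which used tRNA leaves the ribosome, had 1 clone at 54.7 in stimulated axons and 87.6 in unstimulated axons (z ratio −1.64). RPL11, which binds 5S rRNA together with RPL5, had 1 clone at 61.5 in stimulated axons and 92.9 in unstimulated axons (z ratio −1.49). Both were dim spots, and on the cell body arrays RPL10A gave 111 with and 159 without stimulation and RPL11 gave 83.0 and 117. RPL5, the partner of RPL11, had a z ratio of −0.32.

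RPL19, which forms a bridge between the subunits, had a mean z ratio of −1.49 from clones that differed. Its brighter clone gave 280 in stimulated axons and 783 in unstimulated axons (z ratio −2.72), against 2111 in stimulated and 1960 in unstimulated cell bodies. Its dim clone gave 66.7 in stimulated and 58.9 in unstimulated axons (z ratio −0.25). The bright clone was thus lowest in stimulated axons, intermediate in unstimulated axons and highest in cell bodies. The spot directly before it on the membrane, named for the calcium channel TRPV6, held 0.383 to 0.394 of its intensity on all 4 arrays. It was the 1 clone with such a neighbour (a ratio constant to within 1.2-fold) among the 22 member clones that varied by more than 3-fold over the arrays, and the part of the neighbour in this result was not tested.

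Among the other clones lower in stimulated axons, those of RPL10A, RPL18, RPL8, RPS14 and RPL35 had the same order of arrays, an order seen in 41 of the 154 member clones in all. How many other spots had this order was not counted. The median of all spots was lower in stimulated and unstimulated axons (103 and 89.3) than in stimulated and unstimulated cell bodies (118 and 160). RPL18 had 1 of its 2 clones at 244 in stimulated axons and 472 in unstimulated axons, against 1966 in stimulated and 1923 in unstimulated cell bodies. RPL8 had 1 of its 3 clones at 259 in stimulated axons and 503 in unstimulated axons, against 1606 and 1571 in stimulated and unstimulated cell bodies, while its other clones were bright throughout. RPS14, a small subunit protein whose haploinsufficiency causes an anaemia in humans, had 1 of its 4 clones at 72.9 in stimulated axons and 148 in unstimulated axons, against 347 and 374 in stimulated and unstimulated cell bodies. In these 3 clones the stimulated axons were at 0.494 to 0.516 of the unstimulated axons in raw intensity while the cell body arrays lay close together.

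RPL35, found at the exit of the peptide tunnel, had a clone at 118 in stimulated axons and 246 in unstimulated axons, against 333 in stimulated and 385 in unstimulated cell bodies, and another that was nearly level at 2538 and 2720 in stimulated and unstimulated axons and at 2611 and 2200 in stimulated and unstimulated cell bodies. The clones of RPL18, RPL8, RPS14 and RPL35 that were low had z ratios of −1.90, −1.90, −2.13 and −2.15 between stimulated and unstimulated axons. RPLP1, an acidic protein of the stalk that recruits elongation factors, had a clone at 170 in stimulated axons and 326 in unstimulated axons (z ratio −1.91), but here the stimulated and unstimulated cell bodies were at 303 and 387. Its other clone (89.1 and 82.5 in stimulated and unstimulated axons) and the 3 clones of RPLP2, its partner in the stalk (z ratios of −1.16, 0.23 and −0.28), were not counted as lower.

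Of the genes whose z-score averaged over both axon arrays was above 0, the lowest after RPL19 were RPL35 (−1.21), RPL41 (−1.01), RPL18 (−0.85) and RPS12 (−0.76). The highest were RPL14 (0.95), RPS10 (0.48), RPL38 (0.42), which in the mouse embryo is needed to translate Hox mRNAs, RPL4 (0.38) and RPL7 (0.34). RPL14 was higher in each of its 3 clones, at 13952, 151 and 121 in stimulated axons and 9395, 71.0 and 76.0 in unstimulated axons. The values of RPS10 and RPL7 rest on dim clones, namely a clone of RPS10 at 94.4 with and 33.1 without stimulation and a clone of RPL7 at 10 and 4.11, which was below background on both. The highest gene value, 1.34 for RPL7A, likewise includes a clone at 34.0 in stimulated axons and 4.79 in unstimulated axons that was above background on neither.

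The z ratios of the members varied with brightness in this comparison. The 18 clones above 5000 had a median z ratio of 0.23 (all named spots of that brightness 0.29), and none was past the threshold. The 22 clones between 500 and 5000 had a median of −0.34, with 3 of them lower (13.6%), where the 1548 named spots of that brightness had a median of 0.18 and 29 of them lower (1.87%). Those 3 were the clones of RPL19, RPL18 and RPL8 described above. The 114 clones below 500 had a median of −0.26, beside −0.07. The limits of 500 and 5000 were chosen after the values were seen.

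**Figure D2:**
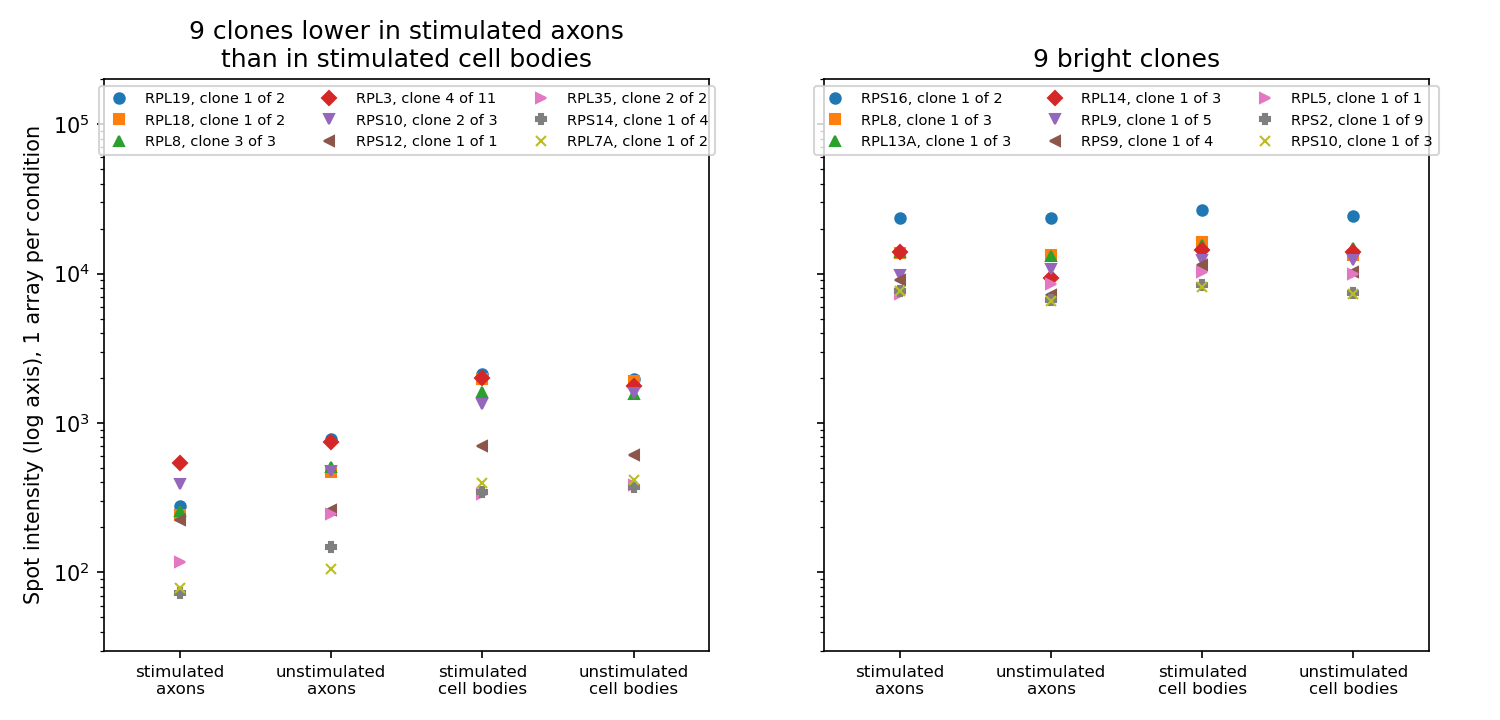
Spot intensity (log axis) on the 4 arrays, 1 array per condition, for 9 clones lower in stimulated axons than in stimulated cell bodies at the z ratio threshold and for 9 clones with bright spots, both chosen after their values were seen. RPL19 lies at 280 in stimulated axons, 783 in unstimulated axons, 2111 in stimulated cell bodies and 1960 in unstimulated cell bodies, while RPS16 stays between 23463 and 26668.

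In cell bodies, stimulation left no ribosomal protein gene past the threshold. The median z ratio of the 63 genes was −0.05, beside 0.05 for all genes, and 38 of 63 lay below 0 (60.3%, beside 45.1% of all genes). No gene was counted as lower or higher, where 2.98% of all genes were lower and 1.37% were higher. By spots, 3 of 154 were lower (1.95%, beside 4.01% of all spots) and none was higher (beside 2.27%), and of the 3 only 1, a clone of RPL37A at 24.4 in stimulated and 87.2 in unstimulated cell bodies, was above background on all arrays. The 18 clones above 5000 were at a median of 1.05 times their unstimulated level in raw intensity, with a range of 0.948 to 1.22.

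Of the genes with a mean z-score above 0 over both cell body arrays, the lowest were RPL7 (−1.08, from its clone below background), RPL4 (−0.33), RPL29 (−0.31), RPS9 (−0.28) and RPL3 (−0.26). The highest were RPS12 (0.58), RPS13 (0.51), RPL35 (0.28), RPL36A (0.22) and RPS2 (0.21). RPS12 gave 697 in stimulated and 615 in unstimulated cell bodies and the clones of RPS13 gave 273 and 219 with stimulation, against 285 and 209 without it. These differences are small in intensity. RPL10 and RPL6, both dim, had −1.34 and −1.09, with 34.2 and 67.1 after stimulation, against 94.3 and 156 without it.

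The axon and the cell body comparison share no array. Over the 154 clones their z ratios had a Pearson r of −0.23 and a Spearman rho of −0.07, and −0.08 and −0.05 over the 143 clones above background, values given as a description of spots that share membranes. No clone was lower in both.

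**Figure D3:**
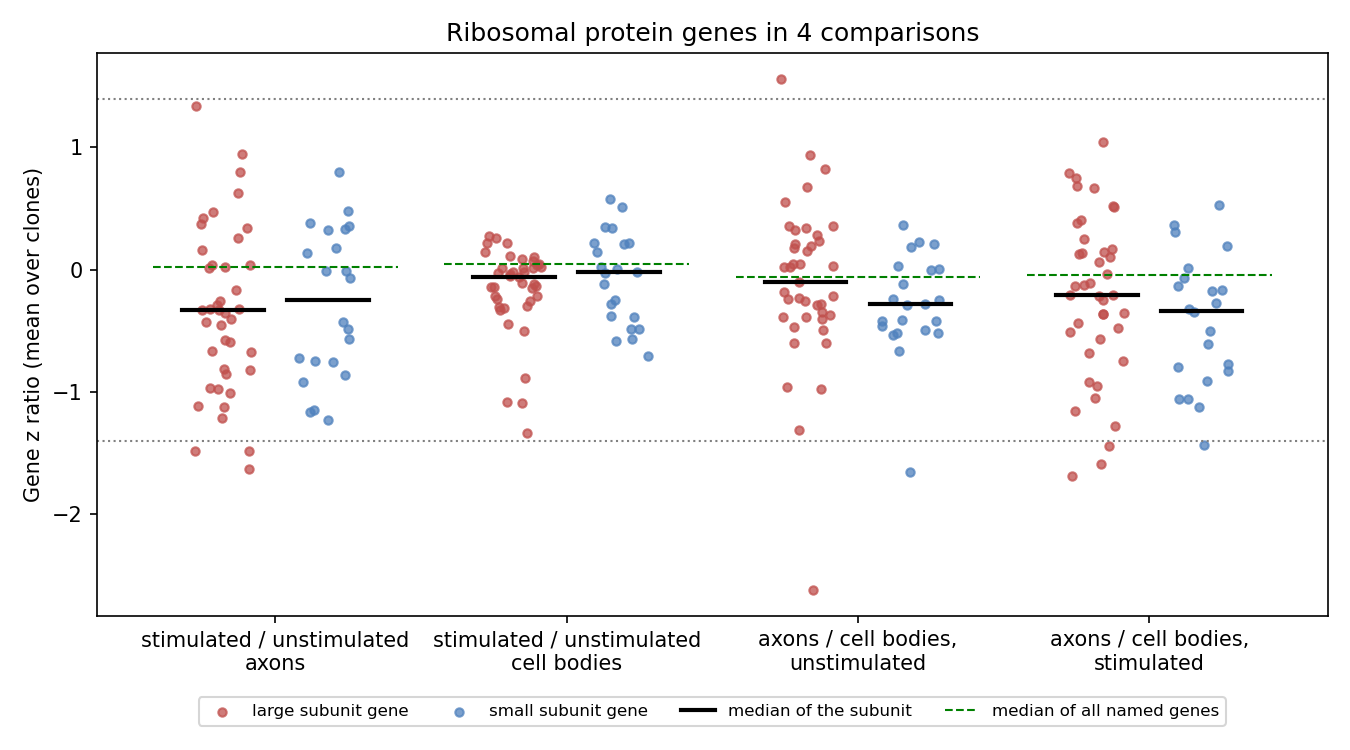
Gene z ratio (mean over clones) of 41 large and 22 small subunit genes in each of the 4 comparisons, with 1 point per gene, black bars at the median of each subunit, a dashed line at the median of all named genes and dotted lines at the threshold of 1.4 in size. The subunit medians are −0.33 and −0.25 in stimulated against unstimulated axons, both below the line of all genes at 0.02.

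Between unstimulated axons and unstimulated cell bodies the members were spread around a median of −0.24, beside −0.06 for all genes. Of the 63 genes, 37 lay below 0 (58.7%, beside 54.1% of all genes). By genes, 2 were lower (3.17%, beside 2.88% of all genes) and 1 was higher (1.59%, beside 3.34%). By spots, 6 were lower (3.90%, beside 3.62%) and 1 was higher (0.649%, beside 5.2%). RPS24, a small subunit protein mutated in some cases of Diamond-Blackfan anaemia, was lower with a z ratio of −1.65, its clones at 69.9 and 38.0 in unstimulated axons and 333 and 159 in unstimulated cell bodies. RPL7A had −2.62, of which the clone at 4.79 in unstimulated axons was below background, while its brighter clone gave 105 in unstimulated axons and 417 in unstimulated cell bodies (z ratio −1.41). The gene counted as higher was RPL26L1, a paralog of RPL26, at 189 in unstimulated axons and 109 in unstimulated cell bodies (z ratio 1.56).

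By the same rule over these arrays, RPS12 (−0.53), RPL18 (−0.49), RPS10 (−0.42), RPL3 (−0.40) and RPL23 (−0.38) were lowest in unstimulated axons relative to unstimulated cell bodies. RPL13A (0.94), RPL5 (0.82), RPL35 (0.68), RPL36 (0.35) and RPL29 (0.34) were highest. A positive z ratio does not mean a higher raw intensity here, since the axon arrays were dimmer as a whole. RPL5, for example, gave 8472 in unstimulated axons and 9886 in unstimulated cell bodies.

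Between stimulated axons and stimulated cell bodies the number of clones past the threshold was larger. This comparison shares the stimulated axon array with that of stimulated against unstimulated axons. Of the 8 clones lower in the latter, 5 were lower here too. The median over genes was −0.21, beside −0.04 for all genes, and 42 of 63 lay below 0 (66.7%, beside 52.8% of all genes). By genes, 4 were lower (6.35%, beside 4.79% of all genes) and none was higher (beside 2.64%). By spots, 14 were lower (9.09%, beside 5.69%) and 1 was higher (0.649%, beside 4.77%), namely the clone of RPL7 below background. All 14 lower clones were above background on all arrays.

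The 4 lower genes were RPL34 (75.7 in stimulated axons and 225 in stimulated cell bodies, z ratio −1.69), RPL39L (58.3 and 152, −1.59), RPL7A (−1.45) and RPS12 (224 and 697, −1.43). RPS12 is a small subunit protein that in Drosophila takes part in cell competition, and RPL39L is a paralog of RPL39 known for its expression in testis. The lower clones also came from RPL18 (z ratio −2.70), RPL19 (−2.57), RPL8 (−2.33), RPS14 (−2.34), RPS24 (−1.80), RPL41 (−1.64), RPL35 (−1.49), RPS13 (−1.49), RPL3 (−1.41) and RPS10 (−1.41). The clone of RPL3 gave 539 in stimulated axons and 1991 in stimulated cell bodies, and that of RPS10 gave 391 and 1344.

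Other clones of the same genes did not go the same way. The brightest clone of RPL8 gave 13807 in stimulated axons and 16191 in stimulated cell bodies (z ratio 1.1), that of RPS10 gave 7633 and 8167 (1.05), and 3 other clones of RPL3 at 2129 to 2937 in stimulated axons had z ratios of 0.02 to 0.66. Of the genes with a mean z-score above 0 over both arrays, the highest were RPL13A (0.79), RPL7 (0.75), RPL5 (0.68), RPL14 (0.67) and RPS16 (0.53), and the lowest besides RPS12 were RPL19 (−1.15), RPL18 (−1.05), RPL41 (−0.75) and RPL23 (−0.57).

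By brightness, the 18 clones above 5000 all had positive z ratios in axons over cell bodies, with medians of 0.96 with stimulation and 0.80 without, where all named spots of that brightness had 1.02 and 0.75. In raw intensity these clones were at a median of 0.866 and 0.851 of the cell body level. They varied little, by 1.11 to 1.59 times between their lowest and highest array. Of the 22 clones between 500 and 5000, 5 were lower with stimulation (22.7%), where 78 of 1548 named spots of that brightness were (5.04%). Among the 5 were the clones of RPL19, RPL18 and RPL8 that were lower in stimulated against unstimulated axons, on the same stimulated axon array.

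The 2 comparisons of axons with cell bodies share no array. Of the 14 clones lower with stimulation, 13 also lay below 0 without stimulation and 2 were past the threshold there, those of RPS24 and RPL7A. Of 353 other named spots that were lower with stimulation and above background, 343 lay below 0 without it and 56 were past the threshold. Over the 154 clones the z ratios had a Pearson r of 0.52 and a Spearman rho of 0.61, with 68 clones below 0 in both and 50 above 0 in both. The 8342 other named spots gave 0.52 and 0.58.

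**Figure D4:**
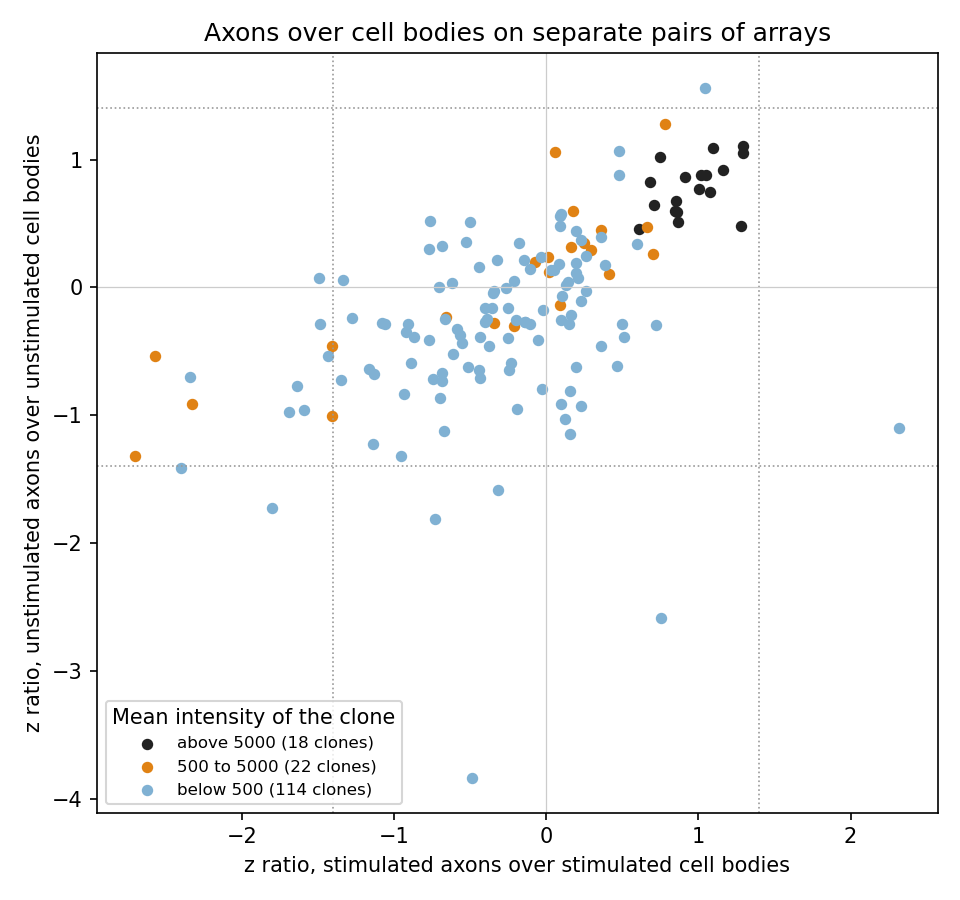
z ratio of axons over cell bodies for the 154 clones, with stimulation on the horizontal and without stimulation on the vertical axis, coloured by the clone's mean intensity and with dotted lines at 1.4 in size. The 18 clones above 5000 lie together at medians of 0.96 with and 0.80 without stimulation, all above 0, and the 14 clones left of −1.4 are of the dimmer classes.

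The medians of large and small subunit genes were −0.33 and −0.25 in stimulated against unstimulated axons, −0.06 and −0.02 in cell bodies, −0.10 and −0.29 in unstimulated axons against cell bodies, and −0.21 and −0.34 in stimulated axons against cell bodies. The difference of large minus small was −0.08, −0.04, 0.18 and 0.13 in these comparisons, of which the first turned sign with robust z-scores and with spots above the array mean only, and the last with loess normalization. The second was −0.89 with spots above the array mean only. The z ratios of clones had an SD of 0.62 to 0.82 within genes in the 4 comparisons.

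Paralogs were set beside their parents where both had a spot. RPL36AL had a z ratio of 0.02 in stimulated against unstimulated axons and RPL36A −0.16, RPL39L had −0.81 and RPL39 −0.82, RPS27L, a target of p53, had −0.92 and RPS27 −1.16, and RPL10L had 0.16 and RPL10 −1.12. In this comparison the values of the first 3 pairs differed by less than those of the last. RPL39 and RPL10 were below background in stimulated axons, at 36.8 and 38.6, so their z ratios with that array are not exact. In stimulated axons against cell bodies RPL39L had −1.59 and RPL39 −0.03, and in unstimulated axons against cell bodies they had −0.96 and 0.24. RPL10L, known from testis, was also the brighter spot of its pair, at 463 in stimulated axons where RPL10 gave 38.6. RPL26, the parent of RPL26L1, was named by no spot used here. RPS4X, the copy on the X chromosome, had −0.01, from clones at −0.63 and 0.61.

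Other genes of protein synthesis gave the following values. The 55 mitochondrial ribosomal protein genes, which serve translation in mitochondria, had a median of −0.07 in stimulated against unstimulated axons, with 5 lower (9.09%, beside 4.96% of all genes) and 2 higher (3.64%, beside 2.86%), among the lower MRPL3 at −1.41. Their medians were 0.10 in cell bodies, −0.13 in unstimulated and −0.18 in stimulated axons against cell bodies. The 44 genes with EIF or EEF symbols, mostly initiation and elongation factors, had −0.05 in axons with 5 lower (11.4%, beside 4.96% of all genes) and none higher, including EIF4G1 (−2.01), the scaffold of cap-dependent initiation, and EIF3I (−1.52). In cell bodies EIF4A1 was higher (1.73) and EIF4A2 lower (−1.77), both RNA helicases of initiation. The median of the 44 genes was −0.15 in cell bodies, −0.36 in unstimulated axons against cell bodies and −0.23 in stimulated axons against cell bodies.

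Among 13 other transcripts with a TOP start, the median was −0.06 in stimulated against unstimulated axons, with EEF1A1, the main elongation factor, lower at −1.64. The z-score of EEF1A1 averaged over both axon arrays was not above 0. Of the 48 spots of these genes, 44 were above background in stimulated axons and 46 in unstimulated axons, the dimmest at 0.12 in stimulated axons. In cell bodies the median of the 13 genes was −0.37. In unstimulated and stimulated axons against cell bodies it was −0.36 and −0.21, with none of the 13 genes past the threshold. By spots, 4 of 48 were lower and 0 higher without stimulation (3.62% and 5.2% of all spots). With stimulation, 6 were lower and 2 higher (5.69% and 4.77% of all spots). The 30 ribosome biogenesis genes had medians of 0.08 in axons (2 lower and 3 higher), 0.10 in cell bodies, and 0.03 in both comparisons of axons with cell bodies, where POLR1C, a subunit of RNA polymerases I and III, was at −2.25 with and −1.53 without stimulation. The 4 genes of RPS6 kinases, which phosphorylate RPS6 and other targets, had z ratios of 0.47 to 1.15 in axons. RPS6 itself had a mean of −0.75 over 3 clones, at 126, 59.5 and 44.5 in stimulated axons and 133, 67.9 and 49.1 in unstimulated axons. None of the kinases nor RPS6 was past the threshold.

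Of 18 listed marker genes of sensory neurons, 6 were on the membrane, with 9 spots above background on all arrays. So were 88.4% to 97.6% of all named spots on an array, and SNAP25 stood at 42.8 in stimulated axons against a background of 42.5. The 9 spots lay at median percentiles of 39.8 and 42.3 of all spots in stimulated and unstimulated axons and 50.7 and 51.9 in stimulated and unstimulated cell bodies. Of the 3 spots of UCHL1, 1 gave 6959 and 7455 in stimulated and unstimulated axons and 9658 and 9384 in stimulated and unstimulated cell bodies, while the others lay between 44.8 and 179 on all arrays. Of 8 spots of Schwann cell markers (5 of 8 genes), 7 were above background on 3 arrays and 8 in unstimulated axons. Of 5 spots of fibroblast markers (5 of 8 genes), 4 were above it on 3 arrays and 3 in unstimulated axons, and of 4 spots of macrophage markers (4 of 6 genes), 4 were on 3 arrays and 3 in unstimulated cell bodies. The summed intensity of the Schwann cell list was 2834 and 2257 in stimulated and unstimulated axons and 3424 and 3594 in stimulated and unstimulated cell bodies. A spot of SOX10 alone gave 1882, 1312, 1938 and 1934 on these arrays. The fibroblast list summed to 15515 and 13551 in axons and 18543 and 18696 in cell bodies. Most of this sum came from FN1 (10815 and 9268 in axons, 11113 and 11390 in cell bodies). THY1 gave 4531 and 4181 in axons and 7242 and 7054 in cell bodies, and the other spots lay between 5.65 and 178. The macrophage list summed to 16794 and 13662 in axons and 14846 and 16353 in cell bodies. Of this, 1 spot, that of C1QB, made up 98.0% to 98.1%. The part of other cell types in the results was not tested. Brightness also depended on the place of a spot in its row. Of the values after centring on that place, the closing section gives that of unstimulated axons against cell bodies.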

How the data were processed

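RNA was amplified by the authors, labelled with 33P and applied to nylon arrays of cDNA clones, which were scanned on a phosphor imager. The deposited values are raw spot intensity, in 2 tables with identical values, and any background correction is not stated in the sources at hand. The sample records give 3 µg of RNA per array, and the methods another amount. Genes were named from the platform annotation, and 0 columns were left unmapped to a condition.

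Intensities were log10-transformed and turned into z-scores array by array over the 9600 spots, from which z ratios were formed and counted at 1.4 as described. No test was run, because each condition has 1 array. The members, lists and rules were chosen with earlier results of these data known. Named genes are, per comparison, the 5 highest and 5 lowest with a mean z-score above 0 over the arrays compared and every gene past the threshold, then the 5 brightest and dimmest per array, genes with 4 or more clones, the stalk proteins, paralogs with their parents, the genes with the 5 largest and 5 smallest SDs over clones, and the largest z ratios of other translation lists. Other clones were named after their values were seen. Alternatives were the undivided z-score difference, log2 ratios (threshold 1), robust z-scores, quantile and loess normalization (span 0.3), normexp (offset 50), spots above the array mean, spots above 10, 1 value per gene, the median over clones, thresholds of 1.3 and 2, the other table and leaving out paralogs, and, chosen after seeing the data, centring on the place in the row. Python 3.11.15, numpy 2.4.6, pandas 2.3.3, R 4.3.3 and limma 3.58.1 were used, and the computation was tested on simulated data.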

Additional observations from a re-analysis of the deposited data

Results flagged for a closer look

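Of the clones above background on every array, 5 were past the threshold of 1.4 in 1 compartment and of opposite sign in the other. All 5 were lower in stimulated axons. How many other spots met this rule was not counted, so it is not a trait of the members. In stimulated against unstimulated axons, 5.19% of member spots were lower, beside 5.69% of all spots. By sign alone, 67 of the 154 clones were opposite in axons and cell bodies. Of the 154, 48 were below 0 in both and 39 above 0 in both, where 1845 and 2453 of the 8342 other named spots were. Each compartment was 1 array against 1 array, and this difference was not tested. The z ratio was −2.72 in axons and 0.25 in cell bodies for the brighter clone of RPL19, −2.15 and 0.13 for the dimmer clone of RPL35, −2.13 and 0.28 for the brightest clone of RPS14, −1.9 and 0.15 for the brighter clone of RPL18, and −1.9 and 0.19 for the dimmest clone of RPL8.

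Spots of pseudogenes, which the comparisons did not use, were above background on every array in 2 of 3 cases. RPL32P3 gave 283.3 in stimulated axons, 367.72 in unstimulated axons, 1267.79 in stimulated cell bodies and 1369.76 in unstimulated cell bodies. RPL23AP7 gave 495.22 and 394.57 in stimulated and unstimulated axons and 607.08 and 560.52 in stimulated and unstimulated cell bodies.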

How the results depend on the processing

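The values here are the median of the member genes minus that of all genes, in SDs of the difference over spots. All alternatives reprocess the same arrays, and the other table holds identical values, so they do not show the spread between samples. In stimulated against unstimulated axons this difference of medians was −0.36 and lay below 0 under every alternative run, between −0.56 and −0.31. It was −0.56 with spots above the array mean, −0.52 with spots above 10 and −0.43 with normexp. In cell bodies it was −0.10, and −0.27 with normexp, −0.19 with spots above 10 and −0.18 with log2 ratios. In unstimulated axons against cell bodies it was −0.17, and −0.10 with quantile normalization, −0.09 with loess, −0.07 with spots above the array mean and −0.02 after centring on the place in the row, chosen after seeing the data. In stimulated axons against cell bodies it was −0.17, and −0.43 with spots above the array mean, −0.34 with normexp, −0.29 with loess and with spots above 10, and −0.25 with quantile normalization.

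Counts past the threshold depended on the setting. The 3 genes lower in stimulated against unstimulated axons became 0 with the undivided difference, log2 ratios, quantile normalization and a threshold of 2, 1 with robust z-scores, 6 with spots above the array mean, 7 with spots above 10 and 9 with normexp, and 1 gene was higher with log2 ratios, quantile normalization, normexp, 1 value per gene and a threshold of 1.3. In cell bodies 1 gene was lower with log2 ratios, loess and a threshold of 1.3, 2 with normexp, 3 with spots above 10 and with 1 value per gene, and 1 was higher with spots above the array mean. In unstimulated axons against cell bodies the 2 lower genes became 0 with the undivided difference, 1 at a threshold of 2 and 4 with normexp, and the higher gene was lost (0) with the undivided difference, spots above the array mean, a threshold of 2 and without paralogs. In stimulated axons against cell bodies the 4 lower genes became 0 with the undivided difference, robust z-scores and a threshold of 2, and 8 with normexp, and 1 was higher with log2 ratios, quantile normalization, loess, normexp, spots above the array mean and spots above 10, and 3 with robust z-scores.

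Large minus small, −0.08 in stimulated against unstimulated axons, turned to 0.03 with robust z-scores and 0.17 with spots above the array mean, and was −0.26 with log2 ratios and without paralogs, −0.28 with spots above 10 and −0.35 with normexp. In cell bodies it was −0.89 with spots above the array mean. In unstimulated axons against cell bodies, at 0.18, it was 0.04 with log2 ratios and robust z-scores, 0.06 with quantile normalization and 0.07 with loess and with spots above 10. In stimulated axons against cell bodies, at 0.13, it was 0.29 with robust z-scores and turned to −0.04 with loess. The cause of these changes was not tested. The SD within genes over that between gene means, 1.58 on the unstimulated cell body array, was 1.80 with spots above the array mean.

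No paired analysis was possible because each condition has 1 array. Without replicates the spread between samples is unknown, and the 11 clones not above background on every array have no exact ratio.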
